A study of Mus musculus with 18 samples.

Results

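The DNA replication and S phase genes described here are 42 listed genes, found by symbol in the table of read counts among its 24527 entries. All 42 were found, and all 42 were among the 13827 genes that passed the filter on low counts. They were grouped by role: 9 licensing genes, 5 helicase activation genes, 6 genes of the sliding clamp and its loader, 2 of the single-strand binding protein, 6 of primase and the polymerases, 3 of Okazaki fragment joining and base excision, 4 of nucleotide supply, 4 of chromatin and histone supply and 3 regulators of S phase entry.

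Before S phase, Cdc6 and Cdt1 load the ring of Mcm2 to Mcm7 proteins onto origins, and geminin (Gmnn) blocks renewed loading. Cdc45 and the GINS complex then turn that ring into the active helicase, primase with DNA polymerase alpha lays down primers, and the polymerases delta and epsilon extend them on the clamp Pcna. Many of these genes are targets of E2F factors, which RB proteins hold back until cyclin E and its kinase act. In epithelial cells TGFb is known to restrain the G1 to S transition, partly through the CDK inhibitor gene Cdkn2b.

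RNA was sequenced from 3 mouse pancreatic ductal adenocarcinoma lines of mixed strain background, PD454, PD7591 and PD883. Each line was treated for 48 h with the vehicle DMSO, with ionomycin at 2.5 µM, an ionophore that lets calcium into cells, or with TGFb at 10 ng/ml, and each of the 9 groups had 2 libraries, so that a treatment had 6. The title of the series states a calcium-induced partial epithelial-mesenchymal transition, and the comparisons below ask how the replication genes stood in the same cells. The labels do not say that the 2 libraries of a group came from separate cultures, so p-values measure only the spread between these libraries, which may be technical. The sources used here do not give the genotype of the lines or the number of tumours or clones behind each.

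Library totals ran from 17591005 to 37894692 counts. The lowest count of a member was 28 (Ccne1 in library 7, DMSO PD883). The ductal keratins Krt8 (1376 to 3257 CPM, counts scaled to library size with edgeR's TMM factors) and Krt18 (1466 to 3828 CPM) were high in all 18 libraries. Other markers of the 9 on the ductal list were not: Krt19 ranged from 4.12 to 1746 CPM, Cdh1 from 19.0 to 781 CPM, Muc1 from 0.790 to 103 CPM and the adhesion gene Epcam from 0.732 to 4.30 CPM, and Cldn4 was at 0 in its lowest library. The 9 summed to 4906 to 7707 CPM with DMSO, 5394 to 9701 CPM with ionomycin and 3993 to 7051 CPM with TGFb. With ionomycin 3 of the 9 rose and 0 fell, and with TGFb 4 fell and 3 rose (log2 fold changes from -5.86 to 9.26 over the list), so these markers moved with treatment and their part in the results below was not tested. The 7 acinar and 5 endocrine marker genes summed to at most 6.23 and 0.300 CPM, and 6 of those 12 were at 0 throughout. The acinar sum was 0.0436 to 1.44 CPM with DMSO, 0.0538 to 1.22 CPM with ionomycin and 2.48 to 6.23 CPM with TGFb. Cela1, the 1 acinar gene that passed the filter, rose with TGFb (log2 fold change 3.19), and its part was not tested. The sum of the 7 fibroblast genes ranged from 2.02 to 5.87 CPM with DMSO, from 1.5 to 4.24 CPM with ionomycin and from 6.97 to 101 CPM with TGFb, mostly Col1a1 at its highest, and the part of these cells or genes was not tested either. The 6 immune genes reached 29.3 CPM with ionomycin, nearly all of it Cd68, while Ptprc stayed at or below 0.274 CPM. The 5 endothelial genes summed to at most 3.43 CPM, also with ionomycin. The 45S pre-rRNA entry Rn45s took 0.283% to 2.26% of counts with DMSO (median 1.60%), 0.304% to 4.11% with ionomycin (median 2.08%) and 0.256% to 1.04% with TGFb (median 0.340%), with overlapping ranges, and its part in the results was not tested.

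Library 7 (DMSO PD883) stood apart from its duplicate, library 8. The 42 members summed to 1831 CPM in library 7 and to 3402 CPM in library 8, and all 42 were lower in 7, with a median log2 difference of -0.99. In the same line with TGFb, 41 of 42 were lower in library 11 than in 12, with a median of -0.75 and sums of 1832 and 2899 CPM. The genes of G2 and mitosis were lower in the same libraries, 23 of 24 in library 7 and 22 of 24 in library 11. In PD883 with ionomycin 36 of 42 were lower in library 9 than in 10, with a median of -0.31, as were 9 of the 24 genes of G2 and mitosis. For DMSO, ionomycin and TGFb the median difference, lower-numbered minus higher-numbered library, was -0.14, -0.05 and -0.13 in PD454. In PD7591 it was 0.20, -0.02 and 0.02. The main counts are therefore also given without single libraries of PD883. Short transcripts were in excess in libraries 14 and 8 with DMSO and in libraries 18 and 12 with TGFb (the first of each pair from PD454, the other from PD883). Their correlation of log2 deviation and log2 transcript length was between -0.220 and -0.112, against -0.067 to 0.163 in the others.

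**Figure D1:**
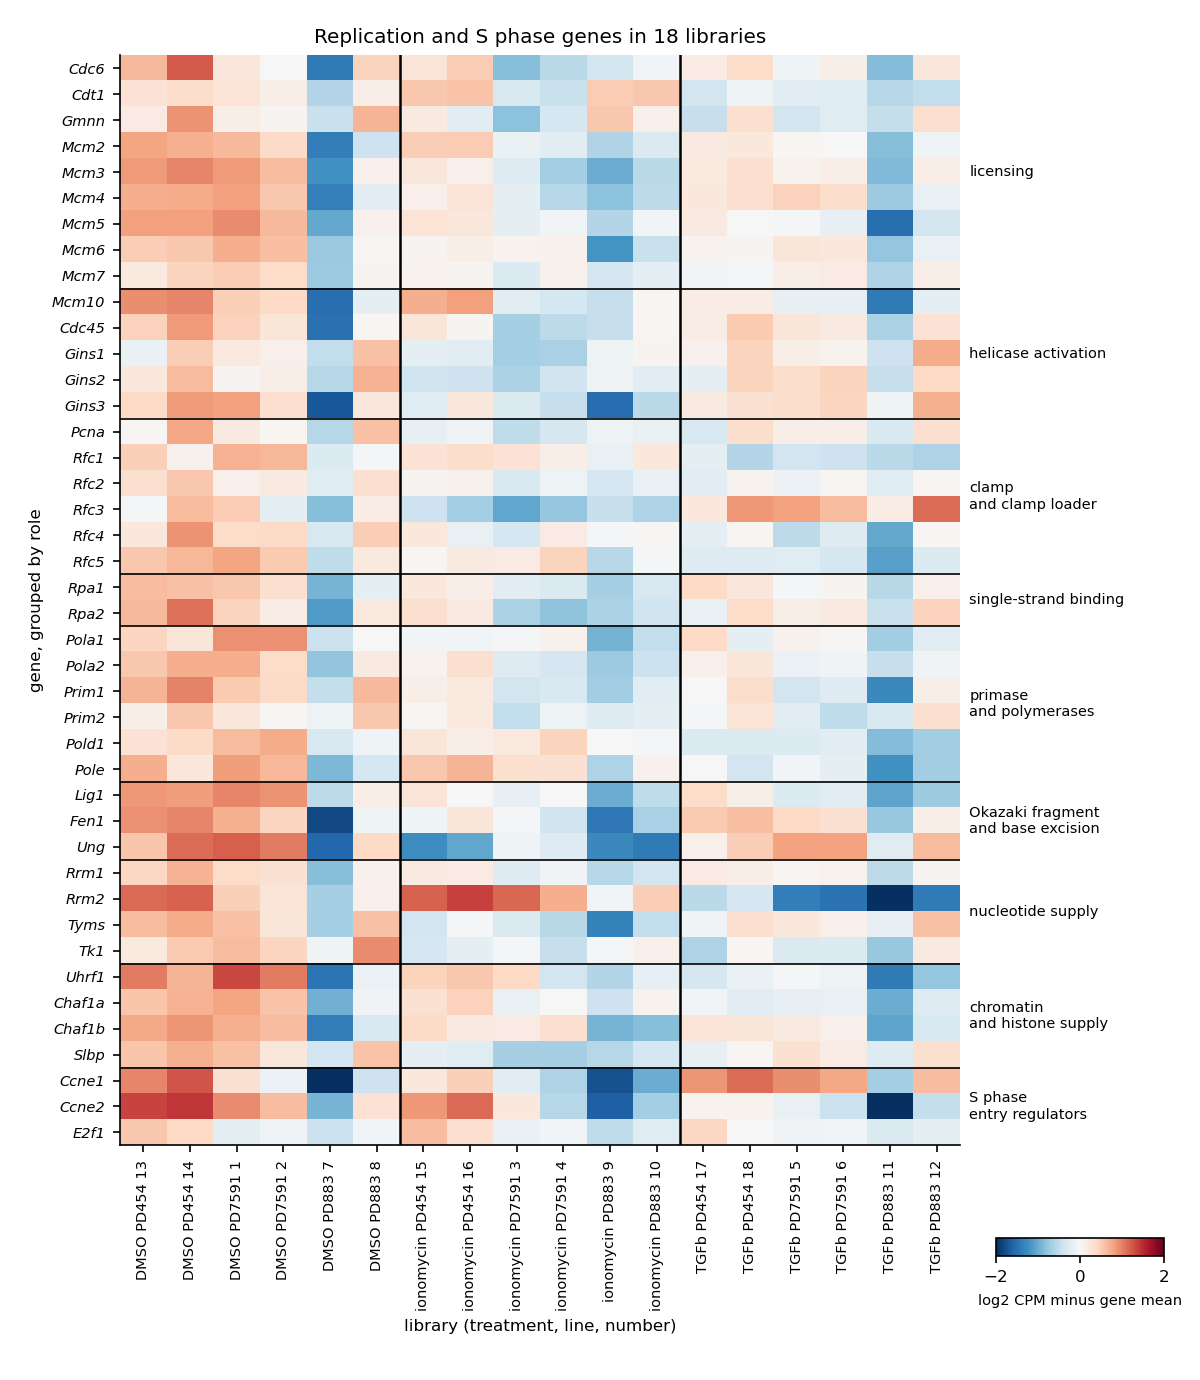
Log2 CPM of each of the 42 genes (rows, grouped by role) in each of the 18 libraries (columns), minus the mean of the gene. Library 7 (DMSO PD883) is lower than its duplicate, library 8, in all 42 rows, and Rrm2 is blue (below its mean) in the 6 TGFb columns.

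With ionomycin 18 of the 42 genes fell and 0 rose (edgeR's quasi-likelihood test, adjusted p under 0.05), where 16.1% of all genes tested fell and 17.2% rose. The fall was spread over all 9 roles and was deepest in Ung, Tyms, Slbp, Lig1 and Mcm3. At an unadjusted p under 0.05, 27 were lower and 1, Rrm2, was higher, where 6085 of the 13827 genes tested passed in either direction. DESeq2 called 19 lower and 1 higher, and its share of all genes is not given. The fold change was below 0 for 39 of the 42, and the median log2 fold change was -0.45, against -0.03 over all genes. In RNA from whole cultures, fewer cells in S phase and less of these RNAs per cell cannot be told apart.

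That count depended on every line and on single DMSO libraries. Without library 7, 35 members were lower, without library 8 the count was 11 lower and 1 higher, and without library 14 (DMSO PD454) it was 11 lower. Without the whole line PD883, 35 of 42 were lower, without PD7591 only 5 and without PD454 only 6 were called. For these counts, and those of other runs that leave out libraries, the share of all genes called in the same run is not given. They therefore do not tell a change of the members from a change over all genes. Without the 4 libraries rich in short transcripts 7 were called. The calls of 11 of the 18 members held whichever single library was left out. Ung, Tyms and Slbp were called under every alternative tried.

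With TGFb 17 of the 42 genes fell and 1 rose, where 26.5% of all genes fell and 24.3% rose. The deepest falls were in Rrm2, Ccne2, Uhrf1, Lig1 and Rfc5, and the gene that rose was Rfc3. The fold change was below 0 for 38 of the 42, and the median was -0.33, against 0.00 over all genes. Without library 7 the count was 29 lower, without library 8 or library 11 it was 14 lower and 1 higher, without library 12 it was 22 lower, and without PD7591 only 9 were called. The calls of 14 of the 18 held whichever single library was left out, and Rrm2, Pold1, Rfc1, Rfc5, Lig1, Tk1 and Uhrf1 were called under every alternative. Both agents were set against the same 6 DMSO libraries, so the resemblance of their effects on a gene is not independent, and each comparison's own values are given side by side.

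**Figure D2:**
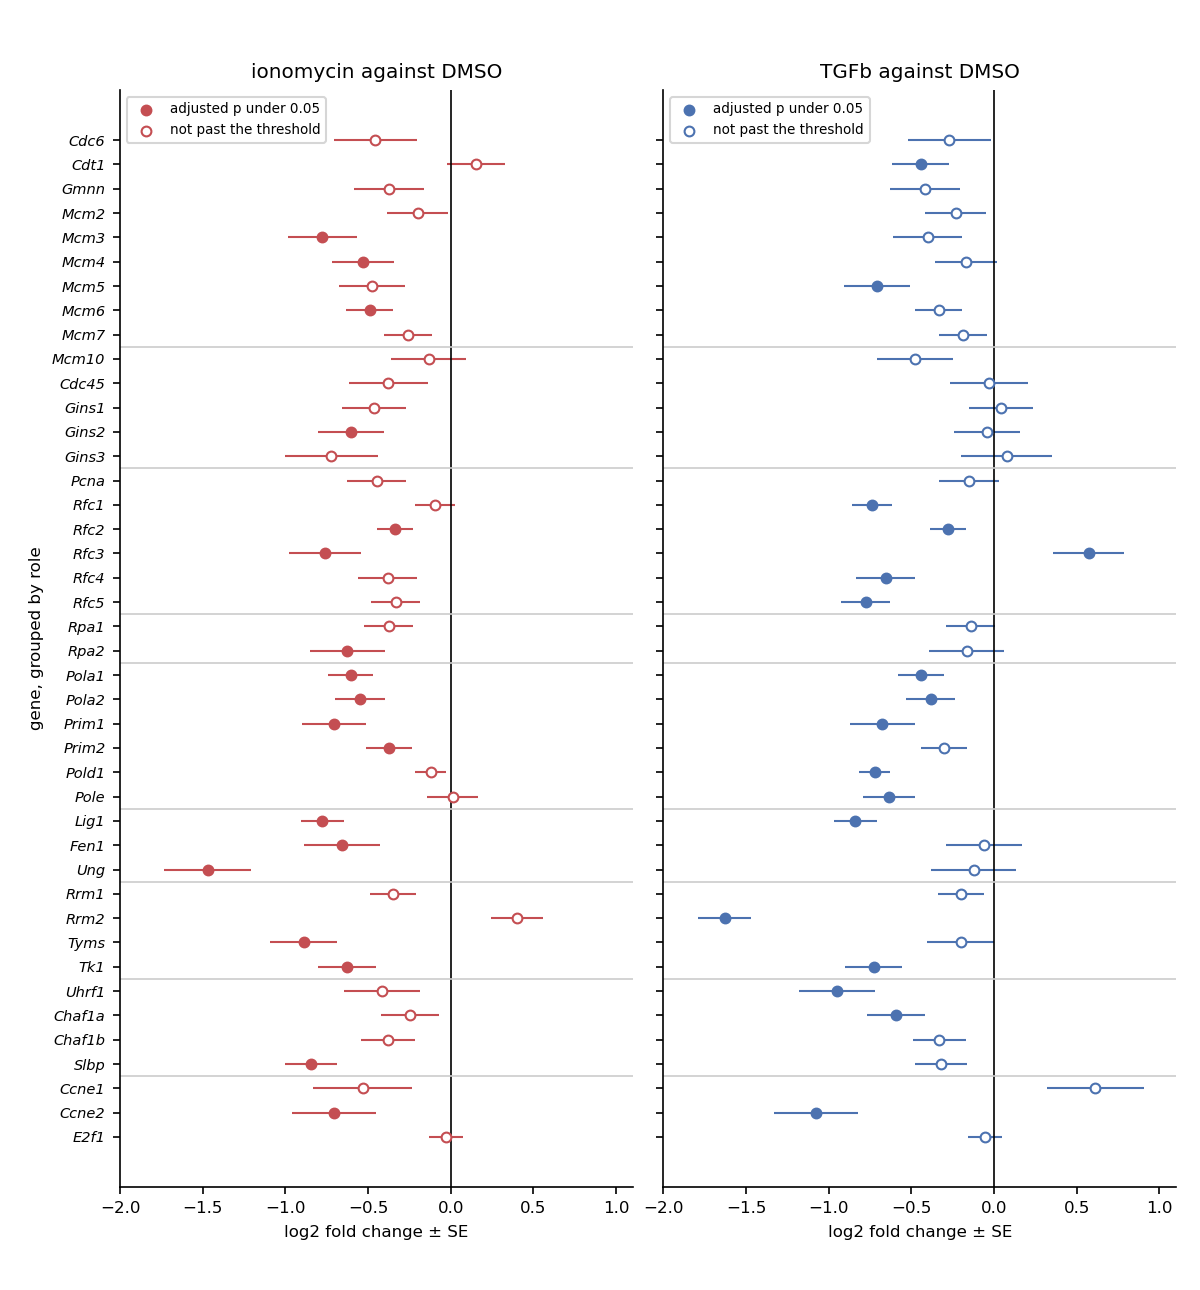
Log2 fold change ± SE of each gene with ionomycin (left) and TGFb (right) against DMSO, from 6 libraries per treatment, with called genes (adjusted p under 0.05) in filled symbols. Most points lie left of 0 in both panels, Ung is lowest with ionomycin (-1.47) and Rrm2 with TGFb (-1.63), and Rfc3 is the one called gene right of 0 with TGFb.

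Promoters were read to see what the members share in sequence. RefSeq promoter windows (build GRCm38.p6, 250 bases before the start site to 50 after it) matched 34 of the 42 members. Prim2, Ccne2, Pole, Mcm4, Gmnn, Gins1, Gins2 and Rfc2 were not matched. An E2F word (TTTCCCGC, TTTCGCGC, TTTGCCGC or TTTGGCGC, on either strand, words allowed to overlap) stood in 12 of 34 members (35.3%), against 3.21% of 17583 genes with a window. In the 250 bases before the start alone it stood in 8 of 34 (23.5%), against 2.66%. The 17583 genes include some that did not pass the filter on low counts. The CCAAT word bound by NF-Y stood in 20 of 34 (58.8%) against 42%, and the CHR word TTTGAA, known from G2 and mitosis promoters, in 4 of 34 (11.8%) against 17.7%.

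The 12 with an E2F word were Cdc6, Cdt1, Mcm3, Mcm5, Mcm6, Mcm7, Gins3, Rfc3, Pola1, Pold1, Lig1 and Uhrf1. In Cdt1, Mcm3, Pold1 and Lig1 the words lay only after the start. With ionomycin 5 of these 12 fell, as did 8 of the 22 members without such a word. With TGFb 6 of the 12 fell and 1 rose, and 8 of the 22 fell. A match describes letters only and says nothing of binding.

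The 160 bases before the start are shown 5′ to 3′ for 5 members, with E2F and CCAAT words in capitals on whichever strand they lie. These 5 do not stand for all members that changed, since an E2F word stood before the start in only 8 of 34. Of the 3 members called with ionomycin under every alternative, Ung and Tyms have no E2F or CCAAT word in their windows. Slbp has CCAAT words and no E2F word. Mcm6 (chr1:128359706-128359865 on the minus strand) and Mcm5 (chr8:75109349-75109508 on the plus strand) fell with ionomycin and with TGFb respectively, Pola1 (chrX:93632156-93632315 on the minus strand) fell with both, Rfc3 (chr5:151651209-151651368 on the minus strand) moved in opposite directions and Rrm2 (chr12:24708094-24708253 on the plus strand) has no E2F word in its window.
Mcm6: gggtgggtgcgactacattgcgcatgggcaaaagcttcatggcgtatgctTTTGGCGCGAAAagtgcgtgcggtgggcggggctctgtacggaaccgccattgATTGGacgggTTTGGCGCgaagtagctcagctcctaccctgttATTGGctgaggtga
Mcm5: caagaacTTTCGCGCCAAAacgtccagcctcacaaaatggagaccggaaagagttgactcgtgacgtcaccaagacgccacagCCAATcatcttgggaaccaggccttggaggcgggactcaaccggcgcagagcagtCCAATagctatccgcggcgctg
Pola1: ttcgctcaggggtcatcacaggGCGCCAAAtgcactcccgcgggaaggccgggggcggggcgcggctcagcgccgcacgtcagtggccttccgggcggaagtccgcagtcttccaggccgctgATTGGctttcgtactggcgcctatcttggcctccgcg
Rfc3: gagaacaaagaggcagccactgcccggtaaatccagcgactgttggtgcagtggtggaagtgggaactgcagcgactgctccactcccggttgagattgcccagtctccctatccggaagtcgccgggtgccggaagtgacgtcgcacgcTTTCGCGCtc
Rrm2: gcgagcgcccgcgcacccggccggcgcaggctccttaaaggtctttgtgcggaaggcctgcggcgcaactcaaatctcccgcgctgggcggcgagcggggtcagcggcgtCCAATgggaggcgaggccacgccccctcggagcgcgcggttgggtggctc
In Mcm6 the E2F words begin 110, 106 and 47 bases before the start, the first pair overlapping. In Mcm5 an overlapping pair begins 153 and 149 bases before it. In Pola1 the word begins 138 bases before the start and in Rfc3 10 bases before it. The CCAAT word of Rrm2 begins 50 bases before the start.

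Of the 9 licensing genes, 3 fell with ionomycin (Mcm3, Mcm6 and Mcm4) and 2 with TGFb (Mcm5 and Cdt1). Mcm3, a subunit of the helicase ring, stood at 61.5 to 278 CPM (median 237) with DMSO and 71.4 to 166 CPM (median 108) with ionomycin. The mean over lines went from 204 ± 85.3 to 116 ± 38.5 CPM (SD, n = 3 lines). The 4 DMSO libraries of PD454 and PD7591 were above all 6 of ionomycin, and those of PD883, at 61.5 and 153 CPM, were not. This gave a log2 change of -0.78 ± 0.21 (SE, adjusted p = 0.00839), below 0 in 3 of 3 lines.

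Mcm6, another subunit of the ring, stood at 112 to 309 CPM (median 266) with DMSO and 81.5 to 205 CPM (median 196) with ionomycin, a log2 change of -0.49 ± 0.14 (SE, adjusted p = 0.0123). The ranges overlapped through the PD883 libraries, since the 4 DMSO libraries of PD454 and PD7591 were above all 6 of ionomycin. Mcm4 fell by 0.53 on the log2 scale with ionomycin (adjusted p = 0.0375), a call lost in 10 of the 18 runs that each left out 1 library (adjusted p up to 0.102 without library DMSO PD7591 1). The other ring genes Mcm2, Mcm5 and Mcm7 had log2 fold changes of -0.20, -0.48 and -0.26 with ionomycin, none of them called.

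With TGFb Mcm5 stood at 44 to 141 CPM (median 117), against 61.5 to 240.0 CPM (median 208) with DMSO, a log2 change of -0.71 ± 0.20 (SE, adjusted p = 0.00635) that was below 0 in 3 of 3 lines. Cdt1, the loading factor, stood at 31.4 to 43.6 CPM (median 37.6) with TGFb and 30.9 to 59.2 CPM (median 53.4) with DMSO, -0.44 ± 0.17 (SE, adjusted p = 0.0389). For Cdt1 every DMSO library but number 7 was above every TGFb library, and for Mcm5 every DMSO library but those of PD883 was. The Cdt1 call was lost in 10 of 18 runs that each left out 1 library (up to 0.13 without library DMSO PD7591 1). The rest of the ring had log2 fold changes from -0.40 (Mcm3) to -0.17 (Mcm4) with TGFb. Cdc6, the origin loading ATPase, changed by -0.46 with ionomycin and -0.27 with TGFb, and Gmnn by -0.37 and -0.42, with no call.

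Of the 5 helicase activation genes, 1 fell with ionomycin and 0 with TGFb. Gins2, a GINS subunit, stood at 11.1 to 26.5 CPM (median 18.4) with DMSO and 10.5 to 15.2 CPM (median 12.5) with ionomycin, -0.60 ± 0.20 (SE, adjusted p = 0.0271). Gins3, its partner in the complex, stood at 1.82 to 10.6 CPM (median 7.62) and 2.04 to 6.86 CPM (median 4.55), -0.72 ± 0.28 (SE, adjusted p = 0.0548), which did not pass. For Gins2 every DMSO library but number 7 was above every ionomycin library, and for Gins3 the groups overlapped further. Gins2 shares 2758 of its 3900 exon bases with Gse1 on the opposite strand. If the counting did not use strand, reads of the 2 genes cannot be told apart.

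With TGFb the fold changes of the GINS genes over all lines were small, but within lines they had both signs. Gins3 changed by -0.40 in PD454, -0.21 in PD7591 and 0.80 in PD883, and Gins2 by -0.28, 0.30 and -0.16. Neither was called for line dependence. Gins3 stood at 5.58 to 9.69 CPM (median 7.37) with TGFb, 0.08 ± 0.28 (SE, adjusted p = 0.837), and Gins1 and Gins2 had log2 fold changes of 0.04 and -0.04. Mcm10, which helps to activate the helicase, stood at 15.3 to 45.3 CPM (median 36.2) with TGFb against 14.3 to 79.6 CPM (median 55.1) with DMSO, -0.48 ± 0.23 (SE, adjusted p = 0.0897). Cdc45, a further part of the active helicase, changed by -0.38 with ionomycin and -0.03 with TGFb. No helicase activation gene passed at an unadjusted p under 0.05 with TGFb.

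The clamp loader genes did not move together. With TGFb Rfc1, Rfc2, Rfc4 and Rfc5 fell and Rfc3 rose, while with ionomycin Rfc3 and Rfc2 fell. Rfc3, a small subunit of the loader, stood at 14.4 and 22.5 in PD454, 20.6 and 12.7 in PD7591 and 8.09 and 16.1 in PD883 with DMSO, in CPM. With ionomycin it stood at 10.9 and 9.07 in PD454, 7.05 and 8.49 in PD7591 and 10.6 and 9.48 in PD883, and with TGFb at 16.8 and 26.7 in PD454, 25.5 and 22.6 in PD7591 and 16.2 and 31.6 in PD883. All 6 TGFb libraries were above all 6 ionomycin libraries, and the DMSO libraries overlapped both.

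On the log2 scale Rfc3 changed by -0.76 ± 0.22 (SE, adjusted p = 0.0123) with ionomycin, below 0 in 3 of 3 lines, and 0.57 ± 0.21 (SE, adjusted p = 0.0331) with TGFb, above 0 in 3 of 3 lines. The call with TGFb was lost in 7 of 18 runs that each left out 1 library (up to 0.0999 without library TGFb PD883 12). Between the agents the difference was -1.33 ± 0.22 (SE, adjusted p = 3.87e-05), and that call held under every alternative. The ratio of Rfc3 to Rfc1, each in TPM, a scale that corrects for transcript length, ranged from 0.219 to 0.580 with DMSO, from 0.158 to 0.319 with ionomycin and from 0.520 to 1.31 with TGFb. TGFb and ionomycin did not overlap in this ratio. Each of the 4 libraries rich in short transcripts had a higher ratio than its duplicate, the transcripts of Rfc3 and Rfc1 are 1317 and 4751 bases long, and the part of length in the ratio was not tested.

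Rfc1, the large subunit, stood at 185 and 140.0 in PD454, 215 and 209 in PD7591 and 110.1 and 129 in PD883 with DMSO and at 117 and 88.1 in PD454, 101 and 98.9 in PD7591 and 90.9 and 86.8 in PD883 with TGFb, in CPM. The ranges met only in that the highest TGFb library (117) exceeded the lowest DMSO library (110), which was number 7. With TGFb Rfc1 changed by -0.74 ± 0.12 (SE, adjusted p = 5.54e-05) on the log2 scale, and with ionomycin -0.09 (adjusted p = 0.577). Rfc5 stood at 20.7 to 36.9 CPM (median 36.5) with TGFb against 30.7 to 75.7 CPM (median 63.4) with DMSO, -0.78 ± 0.15 (SE, adjusted p = 0.000242). Rfc4 had a log2 fold change of -0.66 with TGFb (adjusted p = 0.00521).

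Rfc2, the remaining loader gene here, stood at 45.9 to 78.4 CPM (median 64.4) with DMSO and 42.2 to 57.5 CPM (median 49.9995) with ionomycin, -0.34 ± 0.11 (SE, adjusted p = 0.0234), and its call was lost in 4 of 18 runs that each left out 1 library (up to 0.0825 without library DMSO PD883 8). With TGFb it changed by -0.28 (adjusted p = 0.039), a call lost in 10 of 18 such runs (up to 0.15 without library DMSO PD883 8). Rfc2 shares 952 exon bases with Lat2 on the opposite strand. Pcna itself, the clamp, changed by -0.45 (adjusted p = 0.0629) with ionomycin and -0.15 with TGFb and was not called.

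Of the 2 genes of the single-strand binding protein, 1, Rpa2, fell with ionomycin. Rpa2 stood at 11.8 to 55.2 CPM (median 32.3) with DMSO and 14.7 to 32.1 CPM (median 18.1) with ionomycin, -0.62 ± 0.23 (SE, adjusted p = 0.0415), and Rpa1 at 80.8 to 234 CPM (median 208) and 96.5 to 177 CPM (median 129), -0.38 ± 0.15 (SE, adjusted p = 0.0584). The groups overlapped for both, and the Rpa2 call was lost in 10 of 18 runs that each left out 1 library (up to 0.117 without library DMSO PD454 14). With TGFb Rpa1 stood at 104 to 202 CPM (median 162), -0.14 ± 0.15 (SE, adjusted p = 0.445). Rpa2 stood at 18.9 to 35.6 CPM (median 28.5) with TGFb, -0.17 ± 0.23 (SE, adjusted p = 0.567), so neither was called with TGFb.

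Of the 6 primase and polymerase genes, 4 fell with ionomycin (Pola1, Pola2, Prim1 and Prim2) and 5 with TGFb (Pola1, Pola2, Prim1, Pold1 and Pole). The 4 that fell with ionomycin encode the complete primase and polymerase alpha complex. Pola1, its catalytic subunit, stood at 34.4 to 87.5 CPM (median 58.5) with DMSO and 24.1 to 48.9 CPM (median 44.5) with ionomycin, -0.61 ± 0.14 (SE, adjusted p = 0.00257). Pola2 stood at 31.3 to 89.8 CPM (median 74.2) and 32.6 to 67.8 CPM (median 44.2), -0.55 ± 0.15 (SE, adjusted p = 0.00866). Both were below 0 in 3 of 3 lines, and the 4 DMSO libraries of PD454 and PD7591 were above all 6 of ionomycin.

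Prim1, the primase that makes the RNA primer, changed by -0.71 with ionomycin and -0.68 with TGFb, with nearly equal values in each line (-0.69 in PD454, -0.79 in PD7591 and -0.64 in PD883 with ionomycin). Its partner Prim2 changed by -0.37 (adjusted p = 0.047) and -0.30 (adjusted p = 0.0781), and the call with ionomycin was lost in 10 of 18 runs that each left out 1 library (up to 0.144 without library DMSO PD883 8). With TGFb Pola1 changed by -0.44 (adjusted p = 0.0122) and Pola2 by -0.38 (adjusted p = 0.0385), the latter lost in 10 of 18 such runs (up to 0.142 without library DMSO PD7591 1).

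Pold1 and Pole, the catalytic subunits of the polymerases delta and epsilon, fell with TGFb and were not called with ionomycin. Pold1 stood at 81.5 and 86.7 in PD454, 103 and 111 in PD7591 and 53.4 and 62.8 in PD883 with DMSO and at 54.2 and 54.1 in PD454, 54.8 and 57.5 in PD7591 and 36.5 and 41 in PD883 with TGFb, in CPM. Within each line both TGFb libraries were below both DMSO libraries. On the log2 scale Pold1 changed by -0.72 ± 0.09 (SE, adjusted p = 3.73e-06) with TGFb and -0.12 (adjusted p = 0.337) with ionomycin. Between the agents the difference was 0.60 ± 0.09 (SE, adjusted p = 2.18e-05), and all 6 ionomycin libraries (64.4 to 90.3 CPM (median 74.3)) were above all 6 of TGFb (36.5 to 57.5 CPM (median 54.1)).

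Pole stood at 35.7 to 119 CPM (median 91) with DMSO and 28.8 to 66.2 CPM (median 54.6) with TGFb, -0.64 ± 0.16 (SE, adjusted p = 0.00235). With ionomycin it stood at 43.3 to 107 CPM (median 82.6), a log2 change of 0.01 (adjusted p = 0.966), and the difference between the agents was 0.65 ± 0.16 (SE, adjusted p = 0.00151). The ranges of Pole overlapped in each of these comparisons.

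All 3 genes of Okazaki fragment joining and base excision fell with ionomycin, and 1, Lig1, fell with TGFb. Lig1, the ligase that seals Okazaki fragments, stood at 174 and 171 in PD454, 188 and 178 in PD7591 and 66.1 and 105 in PD883 with DMSO, in CPM. With ionomycin it stood at 114 and 94.6 in PD454, 85.2 and 96.3 in PD7591 and 47.8 and 66.8 in PD883, and with TGFb at 123 and 103 in PD454, 78.4 and 81.7 in PD7591 and 45.7 and 58.5 in PD883. Within each line the values with TGFb were below those with DMSO, and the same held with ionomycin save that one PD883 library (66.8) was level with library 7 (66.1).

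Lig1 had log2 fold changes of -0.78 ± 0.13 (SE, adjusted p = 0.000192) with ionomycin and -0.84 ± 0.13 (SE, adjusted p = 2.85e-05) with TGFb, below 0 in 3 of 3 lines for each. The difference between the agents was 0.06 ± 0.13 (SE, adjusted p = 0.689). Fen1, the flap nuclease of the same step, changed by -0.66 with ionomycin (adjusted p = 0.0343) and -0.06 with TGFb (adjusted p = 0.837). Its call with ionomycin was lost in 7 of 18 runs that each left out 1 library (up to 0.107 without library DMSO PD883 8), and 1908 of its 2422 exon bases are shared with an antisense gene, Gm10143.

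Ung, the glycosylase that removes uracil from DNA, had the largest fall of the 42 with ionomycin. It stood at 17.1 and 25.3 in PD454, 26.6 and 24 in PD7591 and 3.93 and 15.3 in PD883 with DMSO, in CPM, and at 4.94 and 5.7 in PD454, 11 and 9.78 in PD7591 and 4.77 and 4.35 in PD883 with ionomycin. Apart from library 7 (3.93), all DMSO libraries (15.3 or more) were above all ionomycin libraries (at most 11). The log2 fold change was -1.47 ± 0.26 (SE, adjusted p = 0.000371), a fall to 0.361 of the DMSO level, and leaving out single libraries gave -1.67 to -1.31. With TGFb Ung stood at 12.5 and 16.5 in PD454, 20.4 and 20.3 in PD7591 and 9.8 and 18.1 in PD883, -0.12 ± 0.26 (SE, adjusted p = 0.707). The difference between the agents was -1.35 ± 0.26 (SE, adjusted p = 0.000233), called under every alternative.

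The genes of nucleotide supply went apart. Rrm2, the small and cell-cycle-regulated subunit of ribonucleotide reductase, had the largest fall of the 42 with TGFb. It stood at 588 and 605 in PD454, 371 and 318 in PD7591 and 169 and 286 in PD883 with DMSO, in CPM. With TGFb it stood at 184 and 213 in PD454, 102 and 96.3 in PD7591 and 59.2 and 100.0 in PD883, and with ionomycin at 603 and 687 in PD454, 595 and 441 in PD7591 and 258 and 378 in PD883. The TGFb libraries were lowest in every line, and all 6 ionomycin libraries were above all 6 of TGFb.

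The log2 fold change of Rrm2 was -1.63 ± 0.16 (SE, adjusted p = 1.24e-07) with TGFb, a fall to 0.323 of the DMSO level, with -1.59 in PD454, -1.80 in PD7591 and -1.51 in PD883. With ionomycin it was 0.40 ± 0.16 (SE, adjusted p = 0.0575), which did not pass, with 0.11 in PD454, 0.59 in PD7591 and 0.48 in PD883. Between the agents the difference was 2.03 ± 0.16 (SE, adjusted p = 5.42e-09), or 4.09-fold. Per length and with DMSO, Rrm2 was the most abundant of the 42 at 490.9 ± 239.9 TPM (SD, n = 3 lines), ahead of Pcna at 311 ± 44.7 TPM, a difference within the spread of Rrm2 between lines. Gins3 was the least abundant at 8.25 ± 3.43 TPM.

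Rrm1, the large subunit, changed by -0.35 with ionomycin (adjusted p = 0.062) and -0.20 with TGFb (adjusted p = 0.245), neither called. The ratio of Rrm2 to Rrm1 in TPM ranged from 2.2 to 3.77 with DMSO, from 3.26 to 6.08 with ionomycin and from 0.728 to 1.64 with TGFb. Within each line both ionomycin libraries had a higher ratio than both DMSO libraries, and both TGFb libraries a lower one.

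Tyms, which makes thymidylate, stood at 23.8 to 62.5 CPM (median 56.3) with DMSO and 14.8 to 36.9 CPM (median 27.7) with ionomycin, -0.89 ± 0.20 (SE, adjusted p = 0.00266), with -0.88 in PD454, -0.84 in PD7591 and -0.95 in PD883. Apart from library 7 (23.8), the DMSO libraries were above all those of ionomycin. With TGFb Tyms changed by -0.20 (adjusted p = 0.421), and the difference between the agents was -0.69 ± 0.20 (SE, adjusted p = 0.00684). Tk1, the thymidine salvage kinase, stood at 37.2 to 75.8 CPM (median 54.9) with DMSO, 28.7 to 42.2 CPM (median 36.5) with ionomycin and 23.2 to 44.7 CPM (median 32.3) with TGFb, which gave -0.63 ± 0.17 (SE, adjusted p = 0.00986) and -0.73 ± 0.17 (SE, adjusted p = 0.00185). Both were below 0 in 3 of 3 lines.

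Of the 4 genes of chromatin and histone supply, Slbp fell with ionomycin and Uhrf1 and Chaf1a fell with TGFb. Slbp, which binds the stem-loop of replication-dependent histone mRNAs, stood at 82.9 and 93.2 in PD454, 85.1 and 66.5 in PD7591 and 43.5 and 83.8 in PD883 with DMSO and at 50.3 and 47.8 in PD454, 35.9 and 35.9 in PD7591 and 38.4 and 44.5 in PD883 with ionomycin, in CPM. Library 7 (43.5) was the only DMSO library within the ionomycin range. The log2 fold change was -0.85 ± 0.16 (SE, adjusted p = 0.00052) with ionomycin and -0.32 (adjusted p = 0.0953) with TGFb, and the difference between the agents was -0.52 ± 0.16 (SE, adjusted p = 0.00762). Chaf1b, a subunit of chromatin assembly factor 1, stood at 11.6 to 55.2 CPM (median 47.6) with DMSO and 15.8 to 39 CPM (median 34) with ionomycin, -0.38 ± 0.16 (SE, adjusted p = 0.0772), and changed by -0.33 with TGFb.

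Uhrf1, which guides DNA methylation behind the fork, stood at 60.3 to 417 CPM (median 301) with DMSO and 62.4 to 163 CPM (median 141) with TGFb, -0.95 ± 0.23 (SE, adjusted p = 0.00215). Chaf1a, the large subunit of the assembly factor, stood at 64.2 to 217 CPM (median 185) and 63.3 to 121 CPM (median 109.9), -0.59 ± 0.18 (SE, adjusted p = 0.00891). For both genes the DMSO libraries of PD454 and PD7591 were above all 6 of TGFb, and those of PD883 were not. Chaf1a shares 1862 of its 5535 exon bases with Ubxn6 on the opposite strand. With ionomycin Uhrf1 changed by -0.42 and Chaf1a by -0.25, not called.

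The cyclin E genes Ccne1 and Ccne2, partners of the kinase that starts S phase, parted with TGFb. Ccne2 stood at 32.1 and 33.6 in PD454, 24.1 and 19.2 in PD7591 and 6.61 and 15.3 in PD883 with DMSO and at 13.1 and 13.1 in PD454, 11.4 and 9.26 in PD7591 and 2.93 and 8.96 in PD883 with TGFb, in CPM. Its log2 fold change was -1.08 ± 0.26 (SE, adjusted p = 0.0018) with TGFb, below 0 in 3 of 3 lines. Ccne1 stood at 20.8 and 25.1 in PD454, 13.1 and 9.68 in PD7591 and 1.6 and 7.91 in PD883 with DMSO and 19.3 and 22.8 in PD454, 20.0 and 18 in PD7591 and 6.6 and 16.1 in PD883 with TGFb. The difference, 0.61 ± 0.29 (SE, adjusted p = 0.0909), did not pass and was -0.12 in PD454, 0.74 in PD7591 and 1.25 in PD883.

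With ionomycin Ccne2 stood at 4.02 to 27.4 CPM (median 11.5), -0.71 ± 0.25 (SE, adjusted p = 0.039), a call lost in 8 of 18 runs that each left out 1 library (up to 0.12 without library DMSO PD883 8). Ccne1 stood at 3.13 to 14.6 CPM (median 7.91), -0.53 ± 0.30 (SE, adjusted p = 0.175). The ratio of Ccne1 to Ccne2 in TPM ranged from 0.363 to 1.12 with DMSO, from 0.80 to 1.22 with ionomycin and from 2.22 to 3.39 with TGFb, so that the TGFb libraries did not overlap the rest. E2f1, the activator of many members, stood at 42.2 to 82.3 CPM (median 54.1) with DMSO, 39.7 to 87 CPM (median 53.1) with ionomycin and 46.3 to 75.3 CPM (median 54.4) with TGFb. Its log2 fold changes were -0.03 ± 0.10 (SE, adjusted p = 0.859) and -0.06 ± 0.10 (SE, adjusted p = 0.664).

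**Figure D3:**
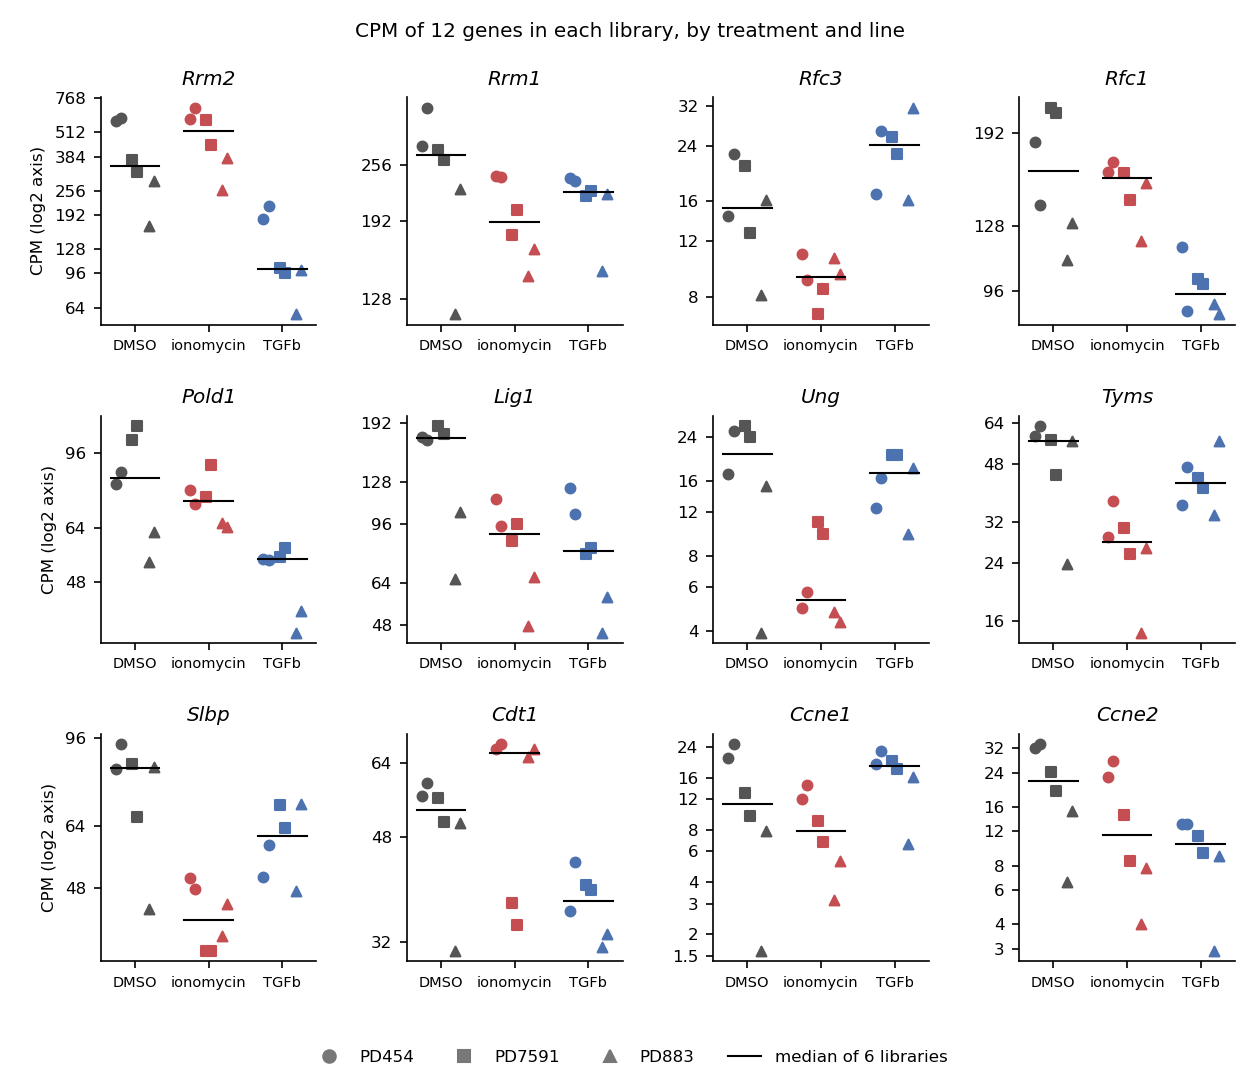
CPM (log2 axis) of 12 genes in each of the 18 libraries by treatment, with the line as the symbol and a bar at the median of 6 libraries. The TGFb points of Rrm2 (59.2 to 213) lie below all ionomycin points (258 to 687), those of Rfc3 lie above them, and the lowest DMSO point of most panels is library 7 of PD883.

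Between the agents 9 members were lower with ionomycin than with TGFb and 7 were higher, where 31.9% and 31% of all genes were. The lower ones were Gins1, Gins2, Gins3, Rfc3, Fen1, Ung, Tyms, Slbp and Ccne1. The higher ones were Cdt1, Rfc1, Rfc5, Pold1, Pole, Rrm2 and Uhrf1. These shares of the members, 9 and 7 of 42, are below those of all genes. Without library 7 the counts were 12 lower and 8 higher, without library 8 or library 11 they were 9 and 6, and without library 12 they were 5 and 10. The calls of 11 of the 16 held whichever single library was left out, and Fen1, Gins1, Gins2, Gins3 and Uhrf1 lost theirs in at least 1 such run (Gins1 up to 0.112 without library TGFb PD883 12; Uhrf1 up to 0.14 without library ionomycin PD883 10).

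Libraries that did not overlap at all were few. Against DMSO, 0 of 42 members had all 6 ionomycin libraries lower or all higher, where 2.69% and 4.54% of all genes did. The same held for TGFb, with 0 of 42 either way, where 9.41% and 8.21% of all genes did. Between the agents 1 member, Rfc3, was lower in all ionomycin libraries (12.3% of all genes) and 3, Rfc1, Pold1 and Rrm2, were higher in all (14.7%).

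Counts within single lines follow, and a test of the difference between lines comes after them. With ionomycin 3 members fell in PD454 (Lig1, Ung and Slbp) and 0 rose, where 9.34% of all genes fell and 11.7% rose there. In PD7591 10 fell and 0 rose (all genes 7.41% and 11.2%), and in PD883 0 fell and 1, Cdt1, rose (all genes 10.9% and 11.6%). At an unadjusted p under 0.05 the counts in both directions were 7, 24 and 6, where 4996, 4357 and 4816 of the 13827 genes tested passed. With limma-voom the counts called were 3, 10 and 1. With each line fitted alone, on its own libraries only, the counts in both directions were 9, 37 and 0. The share of all genes called in those fits is not given, so these counts are not read as a result about the members. The median log2 fold change of the members was -0.50 in PD454, -0.74 in PD7591 and -0.17 in PD883.

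The value for PD883 turned with the library left out. Without library 7 its median was -0.60 and 6 members were lower, and without library 8 it was 0.47 and 6 were higher. In PD454 leaving out library 14 or 15 (ionomycin) ended all 3 calls and leaving out library 16 (ionomycin) left 1, while without library 7 or 8 the count was 7 or 6. In PD7591 the count was 1 without library 1 (DMSO), 4 without 2 (DMSO), 3 without 3 and 1 without 4 (both ionomycin), and 6 without 15, 16, 5 or 6. It was 17 without library 7 or 8. In PD883 it was 3 without library 10 (ionomycin).

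With TGFb 10 members fell and 0 rose in PD454 (all genes 16.1% and 14.8%). In PD7591 11 fell and 0 rose (all genes 20.1% and 17.7%), and in PD883 3 fell, Pold1, Lig1 and Rrm2, and 1, Rfc3, rose (all genes 20% and 18.4%). At an unadjusted p under 0.05 the counts were 15, 15 and 7, where 5623, 6459 and 6457 of the 13827 genes tested passed. With each line fitted alone the counts of members were 19, 25 and 1, again without the share of all genes. The medians were -0.55, -0.44 and -0.10. In PD883 the median was -0.47 without library 7, 0.49 without library 8 and 0.17 without library 11. Its count was 10 lower, 2 lower with 14 higher, and 2 lower with 3 higher in those runs, and 9 were called without library 12. In PD454 the count was 3 without library 13 or 17, 5 without 14, 2 without 18, 6 without 1, 5 or 6 and 16 without 7. In PD7591 it was 5 without library 1, 6 without 5 and 4 without 6.

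A joint test for any difference of effect among the 3 lines called 1 of 42 members with ionomycin (2.59% of all genes) and 0 of 42 with TGFb (5.26%). With TGFb 1 member passed at an unadjusted p under 0.05, and DESeq2 and limma-voom also called 0. The called member was Cdt1, which stood at 56.4 and 59.2 in PD454, 55.8 and 50.9 in PD7591 and 30.9 and 50.7 in PD883 with DMSO and at 67.7 and 68.9 in PD454, 37.2 and 34.1 in PD7591 and 65.6 and 67.7 in PD883 with ionomycin, in CPM. In PD7591 both ionomycin libraries were below both of DMSO, and in PD454 and PD883 both were above. Its log2 fold changes were 0.24 in PD454, -0.58 in PD7591 and 0.71 in PD883 (adjusted p = 0.0363 for line dependence). In 11 of 18 runs that each left out 1 library, 0 members were called for line dependence with ionomycin, and without library 8 the count was 9 with either agent.

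The next smallest p-values with ionomycin were those of Rfc1 (0.03 in PD454, -0.48 in PD7591 and 0.19 in PD883, adjusted p = 0.219), Mcm2 (-0.24 in PD454, -0.69 in PD7591 and 0.39 in PD883, adjusted p = 0.22) and Pold1 (-0.15 in PD454, -0.37 in PD7591 and 0.16 in PD883, adjusted p = 0.221). Mcm2 stood at 61.9 to 278 CPM (median 231) with DMSO and 106 to 230.0 CPM (median 144) with ionomycin, an overall log2 change of -0.20 ± 0.19 (SE, adjusted p = 0.428), while those of Rfc1 and Pold1 were -0.09 ± 0.12 (SE, adjusted p = 0.577) and -0.12 ± 0.09 (SE, adjusted p = 0.337). None of these 3 was shown to differ between lines.

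With TGFb the smallest were those of Mcm2 (-0.55 in PD454, -0.49 in PD7591 and 0.41 in PD883, adjusted p = 0.212), Rfc1 (-0.67 in PD454, -1.08 in PD7591 and -0.43 in PD883, adjusted p = 0.239), Rpa1 (-0.29 in PD454, -0.43 in PD7591 and 0.32 in PD883, adjusted p = 0.291) and Pola1 (-0.21 in PD454, -0.86 in PD7591 and -0.25 in PD883, adjusted p = 0.319). Mcm2 stood at 89.1 to 187 CPM (median 164) with TGFb, -0.23 ± 0.19 (SE, adjusted p = 0.308). Pola1 stood at 28.4 to 61.2 CPM (median 43.7), -0.44 ± 0.14 (SE, adjusted p = 0.0122). The lines already differed without an agent: the joint test on the DMSO libraries called 26 of 42 members, where it called 47.9% of all genes, and the count was 14 without library 7 and 33 without library 8.

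**Figure D4:**
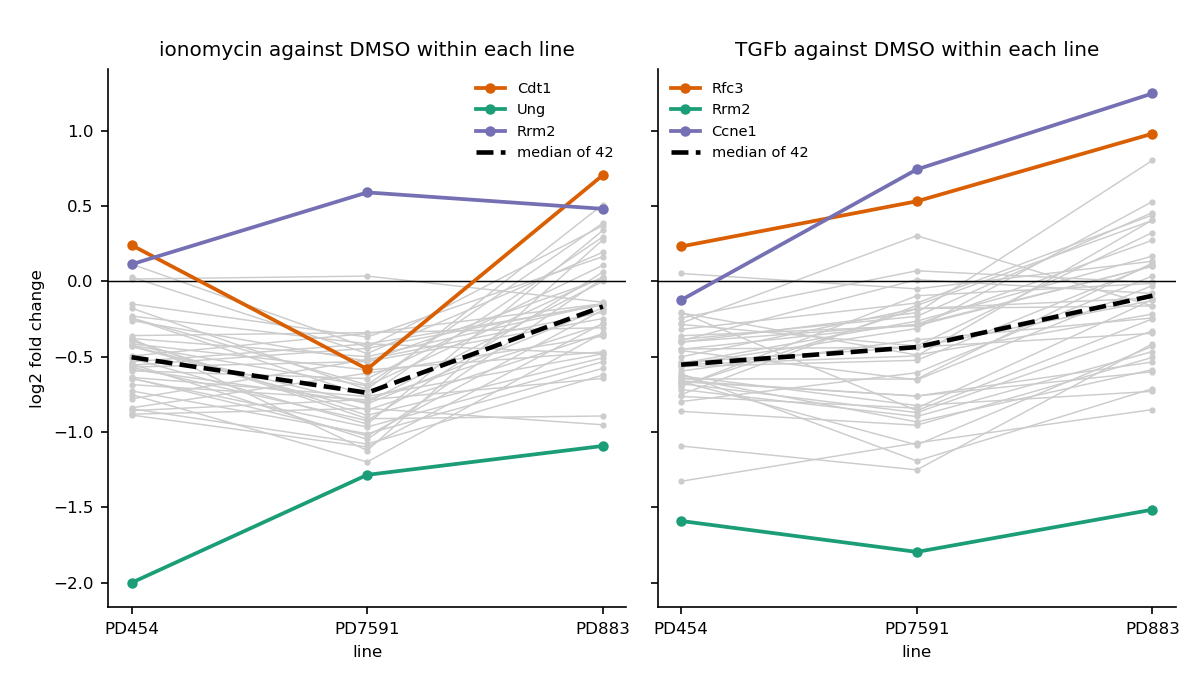
Log2 fold change of each of the 42 genes within each line, for ionomycin (left) and TGFb (right) against DMSO, where a line joins the values of 1 gene and the dashed line is the median of 42. The medians are -0.50, -0.74 and -0.17 with ionomycin and -0.55, -0.44 and -0.10 with TGFb, and Cdt1 crosses 0 between lines.

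Other genes of the pathway were taken from lists by role. Of 36 other replication genes, 10 fell and 3 rose with ionomycin (median -0.24) and 13 fell and 2 rose with TGFb (median -0.23). These are 27.8% and 8.33% of the list with ionomycin, where 16.1% of all genes fell and 17.2% rose, and 36.1% and 5.56% with TGFb, where 26.5% and 24.3% did. Rnaseh2c and Rnaseh2b, subunits of the nuclease that removes RNA from DNA, had log2 fold changes of -0.78 ± 0.13 (SE, adjusted p = 0.000256, 37 against 63.3 CPM) and -0.97 ± 0.19 (SE, adjusted p = 0.000715, 6.58 against 12.6 CPM) with ionomycin. With TGFb the smallest p-values were those of Mcmbp, which binds the Mcm ring, -0.46 ± 0.09 (SE, adjusted p = 0.00028, 70.6 against 97.2 CPM), and of the checkpoint mediator Clspn, -0.93 ± 0.19 (SE, adjusted p = 0.000603, 29 against 59.3 CPM). Between the agents they were those of Recql4, a helicase of origin firing, 2.03 ± 0.23 (SE, adjusted p = 4.04e-07, 72.6 against 17.4 CPM), and Rnaseh2c, -1.01 ± 0.13 (SE, adjusted p = 3.65e-06, 37 against 74.6 CPM).

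Of 12 other nucleotide supply genes, 7 fell and 1 rose with ionomycin (median -0.56) and 4 fell and 2 rose with TGFb (median -0.25). The shares that fell were 58.3% and 33.3%, against the same 16.1% and 26.5% of all genes. Samhd1, which degrades dNTPs, changed by -0.86 ± 0.12 (SE, adjusted p = 2.97e-05, 64.7 against 116 CPM) with ionomycin. With TGFb the folate enzymes Shmt1 and Mthfd1 changed by -1.14 ± 0.12 (SE, adjusted p = 3.15e-07, 22.8 against 49.7 CPM) and -0.74 ± 0.12 (SE, adjusted p = 4.79e-05, 77.4 against 132 CPM). Ionomycin against TGFb gave -1.38 ± 0.20 (SE, adjusted p = 7.12e-06, 54.1 against 140.0 CPM) for the nucleoside diphosphate kinase Nme1 and 0.76 ± 0.12 (SE, adjusted p = 2.92e-05, 54.7 against 31 CPM) for Rrm2b, the p53-inducible relative of Rrm2.

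Of 10 other genes of chromatin supply, 4 fell with ionomycin and 0 rose, and with TGFb 1 fell and 1 rose. The shares that fell, 40% and 10%, stood above and below those of all genes. The histone chaperones Rbbp4 and Nasp changed by -0.40 ± 0.11 (SE, adjusted p = 0.00844, 129 against 172 CPM) and -0.72 ± 0.20 (SE, adjusted p = 0.00874, 80.5 against 139 CPM) with ionomycin. With TGFb the maintenance methyltransferase Dnmt1, which Uhrf1 recruits, changed by -0.78 ± 0.16 (SE, adjusted p = 0.000353, 158 against 282 CPM) and Rbbp4 by 0.47 ± 0.11 (SE, adjusted p = 0.0013, 236 against 172 CPM). Between the agents Rbbp4 differed by -0.86 ± 0.11 (SE, adjusted p = 1.52e-06, 129 against 236 CPM) and the chaperone Asf1a by -0.79 ± 0.16 (SE, adjusted p = 0.000408, 12.6 against 21.7 CPM).

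Of 22 genes of the E2F and RB families and the S phase kinases, 4 fell and 2 rose with ionomycin (median -0.18), and 11 fell and 3 rose with TGFb (median -0.41). With ionomycin the share that fell, 18.2%, was close to the 16.1% of all genes and the share that rose, 9.09%, was below the 17.2%. With TGFb 50% fell, against 26.5%. Skp2, which marks CDK inhibitors for breakdown, changed by -1.04 ± 0.18 (SE, adjusted p = 0.000226, 24.5 against 51.3 CPM) and Rb1 by 0.50 ± 0.15 (SE, adjusted p = 0.0136, 54.1 against 38.5 CPM) with ionomycin. With TGFb the activator E2f2 changed by -2.10 ± 0.21 (SE, adjusted p = 1.46e-07, 8.28 against 36.5 CPM) and the S and G2 cyclin Ccna2 by -1.26 ± 0.17 (SE, adjusted p = 4.68e-06, 118 against 280.0 CPM). Between the agents Lin54, of the DREAM complex, differed by 1.48 ± 0.16 (SE, adjusted p = 2.22e-07, 52.4 against 19.2 CPM) and E2f2 by 1.54 ± 0.21 (SE, adjusted p = 4.73e-06, 26.5 against 8.28 CPM).

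Of 12 CDK inhibitor, D cyclin and G1 kinase genes, 4 fell and 2 rose with ionomycin, and 7 fell and 3 rose with TGFb. The shares that fell were 33.3% and 58.3%, against 16.1% and 26.5% of all genes. The inhibitor gene Cdkn2b rose with TGFb by 1.57 ± 0.10 (SE, adjusted p = 2.66e-10, 170.0 against 56.9 CPM) and Cdkn2c fell, -1.95 ± 0.17 (SE, adjusted p = 2.48e-08, 13 against 49.3 CPM). With ionomycin Cdkn2a changed by -0.67 ± 0.10 (SE, adjusted p = 8.54e-05, 93.2 against 149.8 CPM) and the G1 kinase gene Cdk4 by -0.50 ± 0.11 (SE, adjusted p = 0.00189, 188 against 264 CPM). Between the agents Cdkn2b differed by -1.99 ± 0.10 (SE, adjusted p = 1.03e-11, 42.6 against 170.0 CPM) and Cdkn2a by -1.22 ± 0.10 (SE, adjusted p = 1.02e-08, 93.2 against 219 CPM). Cdkn2a and Cdkn2b lie side by side in the genome, and the transcripts of the Cdkn2a locus were not separated here.

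Genes of G2 and mitosis differed between the agents. Of 24 such genes 1, Ccnb2, fell with ionomycin, -0.47 ± 0.15 (SE, adjusted p = 0.0226, 73.8 against 101 CPM), and 0 rose. Of all genes 16.1% fell and 17.2% rose with ionomycin. The median log2 fold change of the 24 was -0.06. With TGFb 20 of 24 fell, with a median of -0.76, and between the agents 18 of 24 were higher with ionomycin, where 26.5% of all genes fell with TGFb and 31% were higher with ionomycin. With ionomycin the medians of the lines had opposite signs: -0.29 in PD454 with 0 called, -0.36 in PD7591 with 2 lower and 0.47 in PD883 with 4 higher. Of all genes 9.34% fell and 11.7% rose in PD454, 7.41% and 11.2% in PD7591, and 10.9% and 11.6% in PD883. The joint test called 1 of 24 for line dependence, where it called 2.59% of all genes. Without library 7 the pooled count with ionomycin was 5 lower and the PD883 median 0.16 with 2 higher, and without library 8 they were 0 and 0.90 with 14 higher. Without library 15 or 16 the pooled count was 0 and without library 9 it was 2, and over all single libraries left out PD454 had 0 to 3 called and PD7591 0 to 5. The counts with TGFb and between the agents were 24 and 20 without library 7, 19 and 18 without library 8 and 20 and 18 without library 11 or library 12. The proliferation marker Mki67 changed with TGFb by -1.49 ± 0.18 (SE, adjusted p = 1.25e-06, 221 against 589 CPM) and the spindle gene Hmmr by -1.17 ± 0.16 (SE, adjusted p = 4.84e-06, 65.4 against 148 CPM). Between the agents they differed by 1.45 ± 0.18 (SE, adjusted p = 1.18e-06, 566 against 221 CPM) and 1.35 ± 0.16 (SE, adjusted p = 6.65e-07, 164 against 65.4 CPM).

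The summed CPM of the 42 members divided by that of the 24 G2 and mitosis genes was, in PD454, 0.907 and 1.03 with DMSO, 0.792 and 0.820 with ionomycin and 0.950 and 1.11 with TGFb. In PD7591 it was 1.01 and 0.951 with DMSO, 0.90 and 0.801 with ionomycin and 1.32 and 1.34 with TGFb. In PD883 it was 0.740 and 0.875 with DMSO, 0.498 and 0.636 with ionomycin and 1.15 and 1.28 with TGFb. In each line both ionomycin libraries were below both DMSO libraries. In PD883 the member sums with ionomycin (2284 and 2892 CPM) lay between those with DMSO (1831 and 3402 CPM). The sums of the G2 and mitosis genes there were 4586 and 4550 CPM with ionomycin and 2476 and 3886 CPM with DMSO. The member sums with ionomycin were thus above library 7 and below library 8, and those of the G2 and mitosis genes were above both. What lowered the ratio in PD883 was not tested. Both TGFb libraries were above those of DMSO in PD7591 and PD883 and overlapped them in PD454. The exception of PD454 depended on the measure. With geometric means in place of sums its TGFb libraries (0.480 and 0.520) were above those of DMSO (0.428 and 0.462). With sums that left out Rrm2 they overlapped (0.896 and 1.04 against 0.799 and 0.908). Library 7 differed from library 8 less in this ratio than in either sum.

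**Figure D5:**
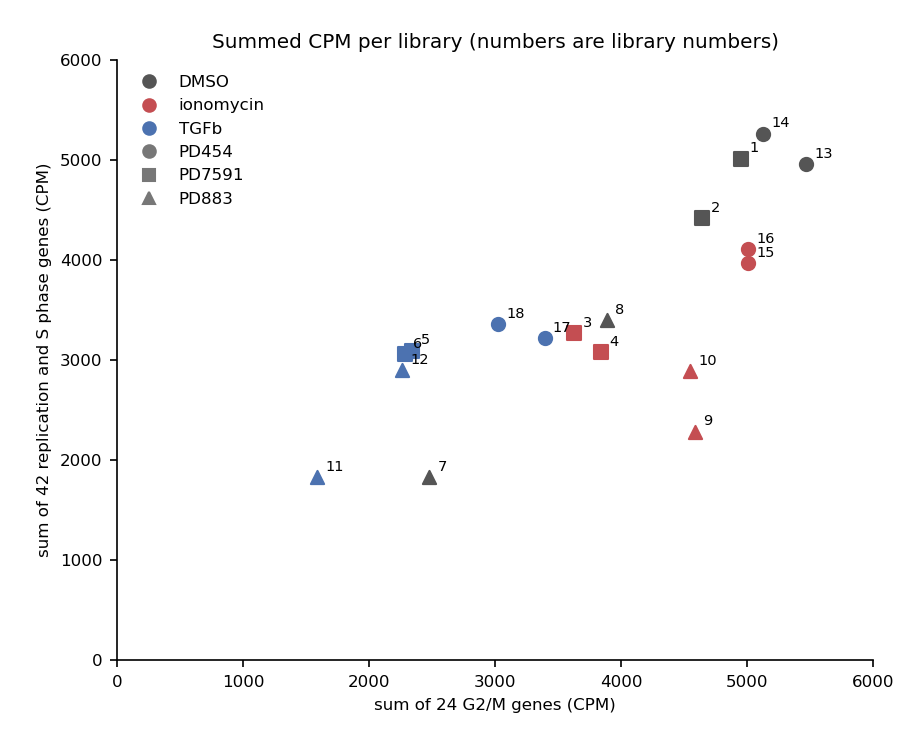
Summed CPM of the 42 replication and S phase genes (vertical) against that of 24 genes of G2 and mitosis (horizontal) in each of the 18 libraries, with treatment as colour, line as symbol and the library number beside each point. The TGFb libraries lie at low G2 and mitosis sums (1590 to 3393), the ionomycin libraries at 3631 to 5009 with member sums of 2284 to 4106, and library 7 lies low on both axes.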

How the data were processed

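RNA from 3 mouse lines was sequenced in 18 libraries, 2 in each of 9 groups of line and treatment, grouped by their labels. The authors deposited 1 table of raw read counts, with a row for each gene symbol. Per the submitters' processing notes, CASAVA, Trimmomatic 0.32, STAR and featureCounts were used with build mm10; the sources used here do not state settings, strand mode or annotation. Strand mode bears on 13 of the 42 members, which share exon bases with a gene on the opposite strand, 11 of them with a protein-coding one. Totals of 17591005 to 37894692 counts set the precision.

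The analysis used edgeR 4.0.16 under R 4.3.3. Its filterByExpr over the 9 groups kept 13827 genes, TMM factors scaled the libraries, and a robust quasi-likelihood F test compared treatments in a model of treatment and line. A model of group means gave effects within lines and joint tests over the 3 lines. P-values were adjusted by Benjamini-Hochberg over all genes tested, and genes under 0.05 were called. The SE was taken as the log2 fold change over the root of F. CPM use TMM-scaled totals and are given by library or as mean ± SD of 3 line means. TPM use the lengths of APPRIS principal transcripts of GENCODE M21. The scripts were tested on simulated data.

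The members and lists were chosen with earlier results of these data known. All 42 members are named. Full values are given for the 2 members of each role with the smallest p in each DMSO contrast, for a called member that moved against the majority, and for the 4 members per agent whose line dependence had the smallest p. For other lists, the 2 called genes with the smallest p per contrast are named. The values of 1 gene that this rule names are not reported here. The alternatives were RLE factors, library totals, no filter, DESeq2 1.42.0, limma-voom (limma 3.58.1), no line term, a mean for each group, summed duplicates, only the libraries of a contrast or line, a transcript length offset, leaving out 4 libraries rich in short transcripts, and omission of each line and of each library. For the genes of G2 and mitosis, omission of each library was added after seeing the data.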

Additional observations from a re-analysis of the deposited data

Results flagged for a closer look

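Cdt1, the factor that loads the helicase ring onto origins, responded to ionomycin differently in the 3 lines by a joint test of the difference (adjusted p = 0.0363, edgeR's quasi-likelihood test). It was the 1 member of 42 called, where the same test called 2.59% of all genes, so the count was near that share. Its log2 fold change was 0.24 in PD454, -0.58 in PD7591 and 0.71 in PD883, with 2 libraries per group. In PD883 the DMSO libraries stood at 30.9 and 50.7 CPM, and the lower one is library 7, in which all 42 members were lower than in its duplicate. In 11 of 18 runs that each left out 1 library no member was called for line dependence. Groups of 2 libraries were too small to look for a library far from the others of its group.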

How the results depend on the processing

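No paired analysis was possible because the groups share no library numbers, so single libraries cannot be paired. The line, shared by all treatments, is a term of the reported model. Counts of called members that moved by over 1.5 times are given here without the share of all genes called in the same run. The cause was not tested. Against 18 (ionomycin), 18 (TGFb) and 16 (ionomycin against TGFb), no line term gave 5, 10 and 9, leaving out PD7591 gave 5, 9 and 10, and leaving out PD883 gave 35, 29 and a count within 1.5 times. With ionomycin leaving out PD454 gave 6 and leaving out the 4 libraries rich in short transcripts gave 7. Within lines, fitting each line alone gave 9, 37 and 0 members with ionomycin in PD454, PD7591 and PD883, and 19, 25 and 1 with TGFb. The length offset gave 16 (PD7591) and 4 (PD883) with ionomycin and 7 (PD883) with TGFb, and library totals gave 2 in PD883 with ionomycin. Library totals also shifted the median of all genes with ionomycin to -0.12, and the higher share of all called genes was 39.3% in place of 51.6%. Line dependence with ionomycin was called for 0 members with library totals and 3 with no filter, and with TGFb for 1 with no filter.

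Leaving out each library gave 11 to 35 called members with ionomycin, 14 to 29 with TGFb, and 13 to 20 between the agents. In PD454, PD7591 and PD883 it gave 0 to 7, 1 to 17 and 1 to 6 with ionomycin, and 2 to 16, 4 to 15 and 3 to 16 with TGFb. It gave 0 to 9 for line dependence with either agent and 14 to 33 for the lines with DMSO. No called member of the 3 pooled comparisons changed sign under any alternative.

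Some members that were not called changed sign. With ionomycin Pole (0.0112 as reported) was -0.11 with the length offset, -0.0734 with library totals, -0.0518 with no line term, -0.0389 without PD454, -0.15 without PD883 and -0.0359 without the 4 libraries. E2f1 was 0.0387 without PD883 and 0.0260 without the 4 libraries, Cdt1 -0.13 without PD883, and Mcm10 0.0218 without the 4 libraries. Without PD7591 Mcm10, Rfc1, Mcm2, Pold1 and Chaf1a were 0.16, 0.12, 0.0634, 0.0244 and 0.0292. Leaving out single libraries gave -0.0850 to 0.0311 for E2f1 and -0.11 to 0.0948 for Pole.

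With TGFb Gins1 was -0.0651 with the length offset, Cdc45 0.00719 with limma-voom and Gins3 -0.00922 with no line term. Without PD454 E2f1, Rpa2, Ung, Gins2, Cdc45 and Fen1 were 0.0219, 0.0942, 0.10, 0.0705, 0.10 and 0.0936. Without PD7591 Rpa1, Cdc45 and Fen1 were 0.0239, 0.0479 and 0.0352, and without PD883 Gins2 and Gins3 were 0.0168 and -0.30. Without the 4 libraries E2f1 and Gins2 were 0.0463 and 0.0977. Leaving out single libraries gave -0.0861 to 0.16 for Gins1, -0.34 to 0.0479 for Ung, -0.17 to 0.12 for Gins2, -0.23 to 0.0737 for Cdc45, -0.26 to 0.0576 for Fen1, -0.14 to 0.20 for Gins3 and -0.0950 to 0.0359 for E2f1.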
